A study of Mus musculus with 18 samples.

Results

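Tumors that the labels call spontaneous, taken from mouse lung, were compared with lung of vehicle control mice across all genes on an expression array. The animals were B6C3F1/N mice, a first-generation cross bred for cancer bioassays, which were 5 to 6 weeks old when the study began. Groups of 60 males and 60 females inhaled antimony trioxide, a metalloid oxide dust, at concentrations of 3, 10 and 30 mg/m3, or 0 in controls. Daily exposure lasted 6 hours with 12 minutes added, on 5 days of each week, and went on for at most 105 weeks. The 18 arrays of the study came from 3 groups of 6, which were vehicle control lung, spontaneous lung tumor and lung tumor of mice that had inhaled antimony trioxide. The comparison described here used 9 of the 18, controls 1, 2, 3, 4 and 6 and spontaneous tumors 1 to 4, numbered as in the labels. Controls are labelled as lung of vehicle control mice, while tumors were dissected out of the surrounding lung and flash-frozen, so tumor and normal tissue also differ in which cells were sampled. The series title speaks of alveolar/bronchiolar carcinomas. The labels do not give the sex, exposure chamber, age at death or tumor size of the animal behind an array, nor whether arrays of a group came from separate animals, so the p-values below rest on the spread between samples that may be technical repeats.

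Lung alveoli are lined by thin type 1 cells, across which gas is exchanged, and by type 2 cells, which make surfactant and can renew the type 1 cells. The airways are lined by secretory club cells and by ciliated cells, and a bed of capillaries, fibroblasts and smooth muscle supports both. Alveolar/bronchiolar tumors of mice are glandular growths of this epithelium that are thought to start from type 2 or club cells, and mutations that activate the RAS to ERK growth pathway are common in them. When ERK, a kinase at the end of that pathway, is active, it induces phosphatases and inhibitors that damp the pathway again, so their transcripts serve as a readout of it.

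A gene's value was the log2 RMA value of 1 probe set, and 18193 genes were tested with limma. A log2 fold change is the tumor mean minus the control mean, is given ± its standard error for 4 tumors against 5 controls, and was called where the Benjamini-Hochberg adjusted p over all 18193 genes was under 0.05. Only called genes are said below to have risen or fallen. Adjusted p-values printed below are from this limma fit unless another test is named. Values below about 5.1 to 5.2, the lower quartile of all probe sets on these arrays, come with no detection call. Levels of different probe sets were not compared.

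The arrays labelled control 5, spontaneous tumor 5 and spontaneous tumor 6 were left out. Their median correlation with the other arrays over all probe sets was 0.301 to 0.476, against 0.920 to 0.939 for the 5 controls and 0.959 to 0.973 for the 4 tumors that were used. With these 3 arrays added, limma called 60 genes higher and 255 lower, all of them among the calls given below. With the 12 arrays weighted by their quality, it called 4033 higher and 2626 lower. Among the 9 arrays, all 7 array measures tested also differed between the groups (exact two-sided permutation test, adjusted p = 0.0278 to 0.0476). They were the array median, the SD, the median correlation, the spikes bioB and Cre, and the 3-prime to 5-prime differences of actin and Gapdh. The median correlation was taken with all other arrays of the study, most of them tumors. It can therefore differ between tumor and control without any technical difference, and its test cannot show one. The hybridization spike bioB read 10.65 to 11.24 on controls and 10.19 to 10.49 on tumors, and the difference between the 3-prime and 5-prime Gapdh control probe sets was 1.84 to 2.21 on controls and 1.11 to 1.40 on tumors (exact two-sided permutation test, p = 0.0159 for each, the smallest that 126 assignments allow, adjusted p = 0.0278 over 7 measures). The part of these measures in the results was not tested. At most 32 of 45101 values were identical between any pair of arrays. The Y-linked gene Eif2s3y read 10.23 to 10.35 in controls and 10.07 to 10.44 in tumors, Uty 6.84 to 7.17 and 7.01 to 7.75, and Kdm5d 9.01 to 9.26 and 9.53 to 10.07. The X-inactivation transcript Xist read 5.60 to 6.44 in controls and 5.62 to 5.91 in tumors. Y-linked transcripts were thus measured in all 9 samples, and Kdm5d was higher in tumors by 0.54 ± 0.13 (adjusted p = 0.0114). Without tumor 2, Uty was called higher too (0.48, adjusted p = 0.0382). With the mean of the Y-linked genes as a covariate, 1147 genes were called higher and 1102 lower, and 2191 of the 6088 calls given below were kept. The direction was the same in 6087 of the 6088. Kdm5d is part of that mean and itself differed between the groups, so the covariate overlaps with the comparison. The loss of calls thus cannot be assigned to Y-linked expression.

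Of the 18193 genes, 6088 were called, 3692 higher in the tumors and 2396 lower, or 20.3% and 13.2% of all genes. In 4919 of them the 4 tumor values lay wholly outside the 5 control values. Over all genes, called or not, the tumors lay wholly above the controls in 3234 genes (17.8%) and wholly below in 2077 (11.4%). Rises were more numerous and falls were larger. More than 2-fold rises numbered 1081 and more than 2-fold falls 1358, and a change of over 16-fold was found in 23 rising and 71 falling genes. Over all genes, the log2 fold change had a median of 0.12 and its standard error a median of 0.16, so changes of a gene list are given beside this median. Counts of called list members are likewise to be read beside the 20.3% higher and 13.2% lower over all genes. The direction of every one of the 6088 calls was the same after quantile normalization or median centring of the 9 arrays. The plot of the 30 largest changes shows the separation in single arrays.

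**Figure D1:**
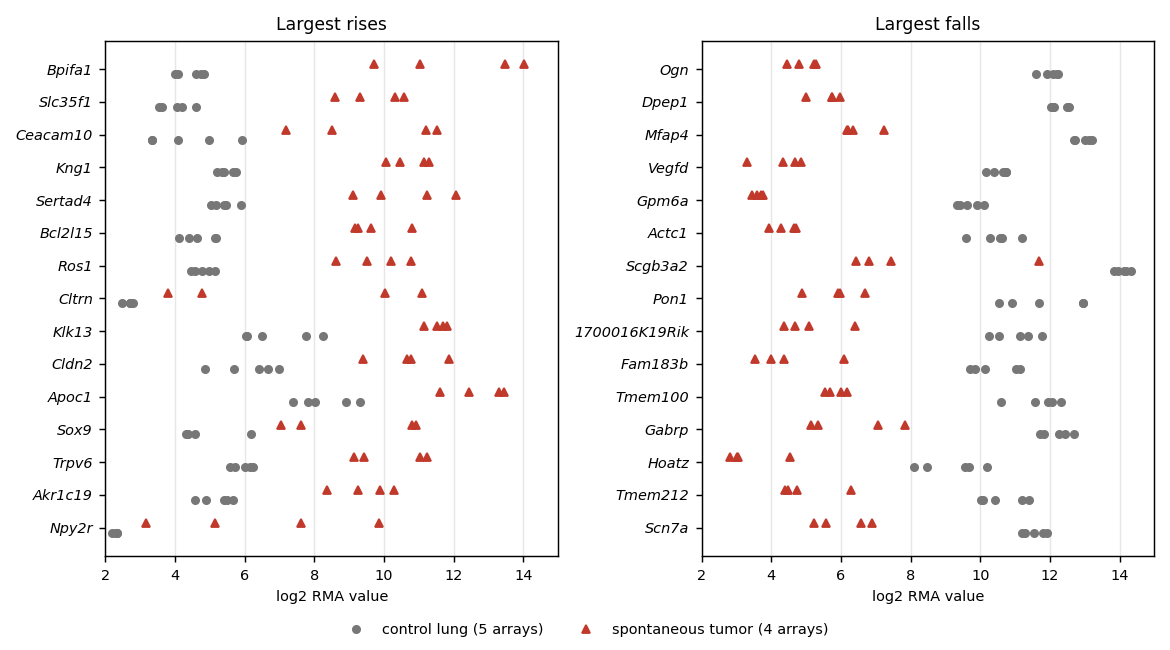
Log2 RMA values (x axis) of the 15 genes with the largest rise and the 15 with the largest fall among called genes without overlap, with a grey circle for each of the 5 control arrays and a red triangle for each of the 4 spontaneous tumor arrays. In each gene shown all triangles lie on one side of all circles; Cltrn, Npy2r, Sox9 and Ceacam10 spread most among the tumors on the left, and Scgb3a2 on the right, where tumor 2 read 11.68 and the other tumors 6.44 to 7.44.

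Bpifa1 had the largest difference in log2 value among the rises. It is a protein that secretory cells of the upper airways release onto their surface. It read 4.74, 4.59, 3.99, 4.84 and 4.07 in the 5 controls and 13.49, 9.72, 11.05 and 14.02 in tumors 1 to 4. Controls lay below the lower quartile of the array, and tumors 1 and 4 were among the highest values measured, which gives a log2 fold change of 7.62 ± 0.77 (adjusted p = 7.12e-05). Without detection calls, the size of a change from or to values below that quartile is uncertain. Kng1, the kininogen from which bradykinin is cut, had the smallest p of all rises. Its values were 5.35, 5.41, 5.65, 5.22 and 5.74 in controls and 11.29, 10.06, 11.15 and 10.47 in tumors, and it rose by 5.27 ± 0.25 (adjusted p = 1.58e-06). In contrast to Bpifa1, it was nearly even across the 4 tumors. Slc35f1, of a family of sugar transporters, rose by 5.71 ± 0.39, and the receptor tyrosine kinase Ros1, from 4.44 to 5.14 in controls to 8.63 to 10.79 in tumors, by 5.0 ± 0.37. Bcl2l15, of the Bcl-2 family, rose by 5.03 ± 0.35 and Sertad4 by 5.18 ± 0.51.

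The pore-forming tight junction protein Cldn2 read 5.68, 6.66, 4.86, 6.41 and 7.0 in controls and 10.77, 9.40, 10.65 and 11.87 in tumors. It rose by 4.55 ± 0.52 (adjusted p = 0.000154), with all 4 tumors above all controls. Trpv6, an epithelial calcium channel, rose by 4.26 ± 0.42 (tumors 11.23, 9.43, 9.13 and 11.03), and the serine protease Klk13 by 4.62 ± 0.45. Tumors 1 and 4 read higher than tumors 2 and 3 for Trpv6, whereas Klk13 was within 11.15 to 11.81 in all 4. Apoc1, a lipid-carrying apolipoprotein, rose by 4.42 ± 0.47, and Akr1c19, an aldo-keto reductase, by 4.24 ± 0.37. Ceacam10, a secreted adhesion family protein, rose by 5.28 ± 0.90, with tumors 1 and 4 at 11.53 and 11.20 and tumors 2 and 3 at 7.19 and 8.52.

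Rises with the smallest p included smaller changes. The fatty acid elongase Elovl7 read 7.27 to 7.63 in controls and 9.32 to 9.51 in tumors, a rise of 2.05 ± 0.11 (adjusted p = 3.2e-06). Mitochondrial arginase, Arg2, rose by 3.99 ± 0.22, and Fut2, a fucosyltransferase that decorates mucosal glycans, by 3.20 ± 0.18. The syntaxin Stx19 rose by 2.20 ± 0.13, the vesicle tethering factor Vps33b by 2.27 ± 0.14, and the proton pump subunit Atp6v1c2 by 1.85 ± 0.12. The SD over the 4 tumors was 0.09 for Elovl7, 0.14 for Atp6v1c2 and 0.23 for Vps33b, against 0.24 for the median gene. It was above that in Arg2 (0.34), Ccdc83 (0.35) and Fut2 (0.38). The transcript 4921507P07Rik rose by 1.82 ± 0.12. Ccdc83 rose by 2.69 ± 0.16, while its other 2 probe sets stood at 0.19 (not called) and 0.32 (adjusted p = 0.0475 with probe sets tested singly).

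The lowest difference in log2 value was that of Ogn, osteoglycin, a small proteoglycan of connective tissue. It read 12.23, 11.91, 12.21, 12.09 and 11.61 in controls and 5.23, 4.79, 4.45 and 5.27 in tumors, a log2 fold change of -7.08 ± 0.20 (adjusted p = 5.26e-08). Every control was near the top of the array's range and every tumor near or below its lower quartile, where the size of the change is uncertain. Dpep1, a dipeptidase on lung vessels and other surfaces, read 12.04 to 12.55 in controls and 5.0 to 5.99 in tumors (-6.64 ± 0.21, adjusted p = 9.29e-08). Gpm6a, a membrane glycoprotein that is also on the mesothelial list, was as even, with 9.34 to 10.12 and 3.44 to 3.75 (-6.06 ± 0.17). In bulk tissue, fewer cells of a type and less RNA per cell cannot be told apart, here and in the lists that follow.

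Other deep falls were as follows. Mfap4, of the elastic microfibrils, changed by -6.46 ± 0.22, Vegfd, a growth factor of lymphatic vessels, by -6.25 ± 0.29, and Scn7a, a sodium channel, by -5.48 ± 0.33. The unnamed transcript 1700016K19Rik changed by -5.88 ± 0.43. The scaffold protein Akap12 was at -4.30 ± 0.14, the integrin chain Itga8 at -4.91 ± 0.17 and the BMP antagonist Chrdl1 at -3.67 ± 0.16. Fgf7, a fibroblast growth factor that feeds the epithelium, was at -3.77 ± 0.17, and Glp1r, an incretin hormone receptor, at -5.02 ± 0.24. These 5 genes had tumor SDs of 0.15 to 0.41 and control SDs of 0.17 to 0.38. The genes Pon1 and Hoatz varied more in controls. Pon1, a paraoxonase, read 12.95, 10.52, 11.68, 12.95 and 10.91 in controls and 4.87 to 6.69 in tumors, and the ciliated cell gene Hoatz read 9.67, 8.09, 8.46, 10.19 and 9.56 and 2.81 to 4.55. Controls 1 and 4 were the highest for both, yet even the lowest control lay above the highest tumor, with changes of -5.94 ± 0.55 and -5.84 ± 0.48.

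Markers of alveolar type 2 cells rose or were not called, while those of type 1 cells, ciliated cells, vessels, fibroblasts and smooth muscle mostly fell. The lists here and below were chosen with earlier results of these data known. Their counts, medians and ranks depend on that choice and are descriptions. Of 19 measured type 2 genes, 13 rose, 0 fell and 6 were not called (median log2 fold change 0.95, against 0.12 for all genes). Napsa, the aspartic protease that matures surfactant protein B, read 8.57, 10.65, 9.11, 8.94 and 10.43 in controls and 12.84, 12.40, 12.81 and 12.22 in tumors. Controls 2 and 6 were the nearest to the tumors, and the rise was 3.03 ± 0.42 (adjusted p = 0.00048). Egfl6, a secreted EGF-like protein, rose by 2.69 ± 0.55 with the same controls nearest, and Lgi3 by 1.76 ± 0.21. The cathepsin Ctsh, which also processes surfactant proteins, rose by 1.51 ± 0.17, and surfactant protein D, Sftpd, by 1.16 ± 0.21. Sftpc, surfactant protein C, the classic type 2 cell product, was not called at 0.14 ± 0.10 (adjusted p = 0.309). It read 14.01 to 14.29 in controls and 14.23 to 14.36 in tumors, close to the highest values on these arrays. The labelled tissue thus carried lung type 2 markers in all 9 samples.

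Transcription factors of the lung epithelium were higher as well. Of 16 measured, 12 rose and 0 fell (median 0.87). Nkx2-1, which sets lung and thyroid identity, read 8.60 to 9.04 in controls and 9.84, 9.80, 9.58 and 9.57 in tumors, a rise of 0.87 ± 0.12 (adjusted p = 0.000479). Cebpa, a factor of type 2 cell maturation, rose by 2.01 ± 0.16, Id2 by 2.43 ± 0.35 and Elf5 by 2.57 ± 0.25. The largest rise was in Sox9, a factor of the embryonic distal lung tip. It read 4.33, 6.17, 4.57, 4.38 and 4.31 in controls and 10.79, 7.05, 7.62 and 10.92 in tumors, so tumors 1 and 4 were far above the controls and tumors 2 and 3 stood closer to control 2 (4.34 ± 0.82, adjusted p = 0.00293). Sox2, a factor of the airway epithelium, lay below the controls in all 4 tumors, with 8.04 to 9.38 in controls and 2.77, 7.20, 7.90 and 7.64 in tumors, but was not called at -2.21 ± 0.92 (adjusted p = 0.0898). Only tumor 1 was far from the controls, and without it the change was -1.01 (adjusted p = 0.0388).

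General epithelial genes split. Among 20 junction and keratin genes 7 rose and 1 fell (median 0.52). Besides Cldn2, the keratin Krt23 rose by 2.37 ± 0.20, the adhesion molecule Epcam by 1.13 ± 0.20 and the simple-epithelium keratin Krt18 by 0.90 ± 0.19. Tjp1, the tight junction scaffold ZO-1, fell, at -0.50 ± 0.11. The 20 summed to 14.6 to 15.1 log2 in controls and 15.2 to 15.4 in tumors.

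Type 1 cell genes were lower. Of 17, 13 fell and 0 rose (median -1.09). Cav1, the caveolin of type 1 and endothelial cells, read 12.53, 12.79, 12.84, 12.32 and 12.39 in controls and 9.40, 10.13, 9.80 and 9.05 in tumors, a change of -2.98 ± 0.22 (adjusted p = 1.34e-05). Spock2, a matrix proteoglycan, read 10.63 to 11.61 in controls and 5.36, 9.47, 7.85 and 7.44 in tumors (-3.66 ± 0.65), and Clic5 read 12.88 to 13.22 and 9.11, 11.67, 11.39 and 10.43 (-2.38 ± 0.44). Tumor 1 was the lowest and tumor 2 the highest of the tumors for both. Igfbp2, a binding protein of insulin-like growth factors, was at -3.43 ± 0.35, and Hopx, a homeodomain protein of type 1 cells, at -1.91 ± 0.30. No type 1 gene was called higher, except that 2 were without control 2 and 1 without tumor 4.

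Ciliated cell genes fell furthest of all lists by their median (-3.22). Of 22 genes, 20 fell, each without overlap, 0 rose, and Dnah11 and Rfx3 were not called. Without control 2 or without tumor 1, Dnah11 was called lower as well (adjusted p = 0.0398 and 0.0100). Foxj1, the master regulator of motile cilia, read 10.16, 9.09, 9.20, 10.69 and 9.86 in controls and 5.20, 6.26, 5.32 and 5.33 in tumors, which is -4.27 ± 0.34 (adjusted p = 2.3e-05). The tumors were near the lower quartile of the array. Tmem212 was at -5.65 ± 0.44, Fam183b at -5.88 ± 0.50, Ccdc113 at -5.29 ± 0.55 and the adenylate kinase Ak7 at -4.53 ± 0.40. Tumor 2 was the highest of the 4 tumors for these 5 genes. The list summed to 13.7 to 15.1 log2 in controls and 11.3 to 11.7 in tumors.

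Club cell and airway secretory genes moved both ways. Of 16, 7 fell, 1 rose (Bpifa1) and 8 were not called (median -1.77), and the count higher was 2 without control 2, tumor 1 or tumor 4. The secretoglobin Scgb3a2 read 13.84 to 14.31 in controls and 6.44, 11.68, 7.44 and 6.79 in tumors (-6.0 ± 0.90, adjusted p = 0.000739). Scgb1a1, the secretoglobin that defines club cells, read 14.35 to 14.49 in controls and 8.78, 13.63, 13.18 and 13.23 in tumors, and so remained high in tumors 2, 3 and 4 and was low in tumor 1 (-2.20 ± 0.84, not called, adjusted p = 0.0686). It was called at -1.06 (adjusted p = 0.000408) without tumor 1 and at -2.67 (adjusted p = 0.0462) without tumor 2. Aldh1a1, an aldehyde dehydrogenase, was at -4.16 ± 0.22, Gabrp, a GABA receptor subunit, at -5.85 ± 0.52 and the club cell monooxygenase Cyp2f2 at -1.88 ± 0.21.

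**Figure D2:**
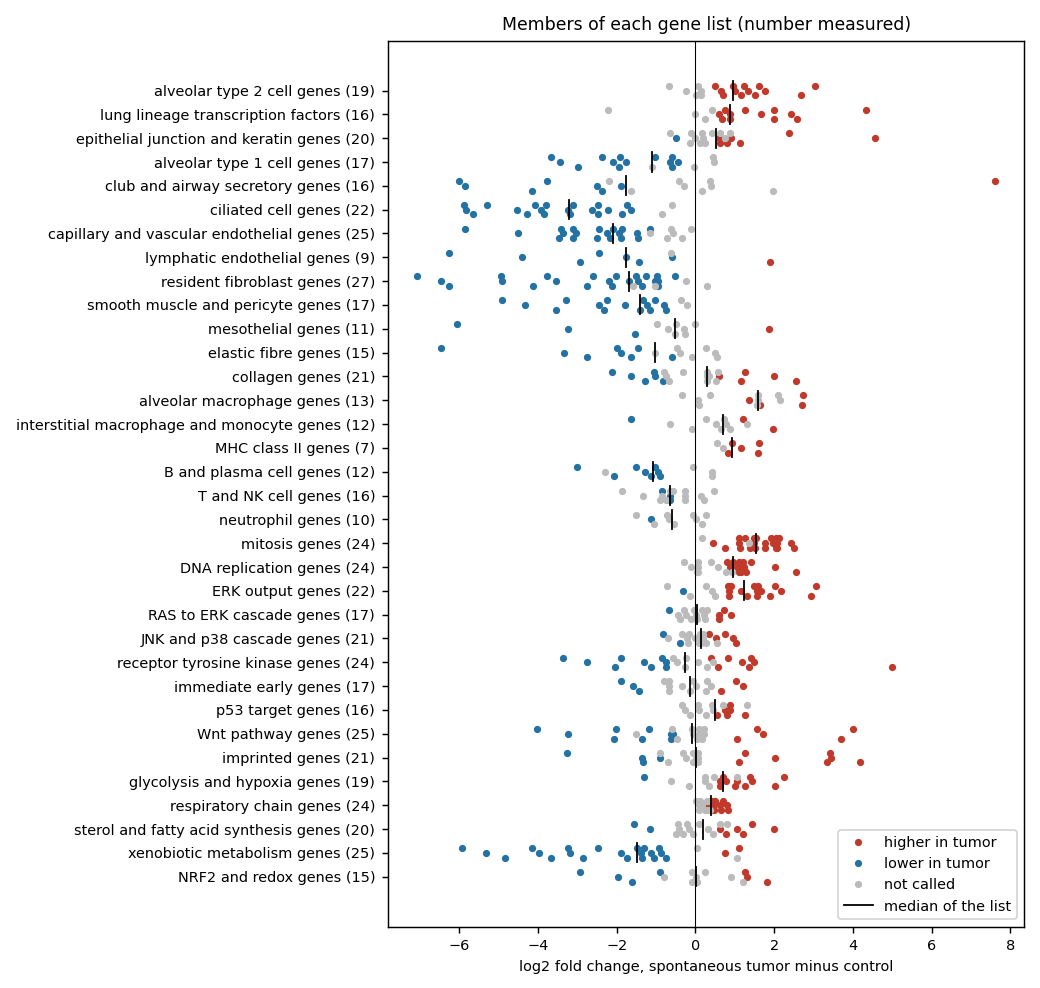
Log2 fold change, spontaneous tumor minus control (x axis), of each measured member of the main gene lists (rows, number measured in parentheses); red points were called higher, blue points lower and grey points not called, and the black bar is the list's median. The ciliated, endothelial, lymphatic, fibroblast and smooth muscle rows lie mostly left of 0 with medians of -3.22, -2.09, -1.75, -1.69 and -1.42, while the type 2 cell, mitosis and ERK output rows lie mostly right of it with medians of 0.95, 1.54 and 1.24.

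Genes of blood vessels were lower. Of 25 capillary and vascular endothelial genes, 19 fell and 0 rose (median -2.09). Pecam1, the adhesion molecule CD31, read 11.93, 11.76, 12.30, 11.51 and 11.54 in controls and 8.86, 9.97, 9.30 and 9.09 in tumors, and Cdh5, the cadherin of endothelial junctions, 12.00 to 12.60 and 9.18 to 10.37. These changes of -2.50 ± 0.24 and -2.46 ± 0.23 were without overlap and larger than the spread of either group. Tmem100, a target of BMP signalling in vessels, was at -5.85 ± 0.31, the prostaglandin dehydrogenase Hpgd at -4.52 ± 0.40, the claudin Cldn5 at -3.46 ± 0.29, the receptor Calcrl at -3.42 ± 0.21 and the angiopoietin receptor Tek at -3.36 ± 0.22. Car4, a capillary carbonic anhydrase that alveolar macrophages also express, was not called at -0.33 ± 0.24. Of 9 lymphatic genes 7 fell and 1 rose. Mmrn1 was at -4.41 ± 0.22 and the hyaluronan receptor Lyve1 at -2.92 ± 0.34, whereas the integrin chain Itga9, which epithelium can express too, rose by 1.90 ± 0.14.

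Fibroblast and muscle genes followed. Of 27 resident fibroblast genes 23 fell and 0 rose (median -1.69), and their summed level was 15.4 to 15.8 log2 in controls and 12.4 to 13.4 in tumors. Tcf21, a transcription factor of lung fibroblasts, read 10.55, 10.94, 11.01, 10.13 and 10.57 in controls and 6.05, 6.26, 5.35 and 5.11 in tumors (-4.95 ± 0.26, adjusted p = 3.07e-06). Inmt, a methyltransferase, was at -4.92 ± 0.27, the matrix protein Dpt at -4.14 ± 0.34, the mesenchymal transcription factor Foxf1 at -3.54 ± 0.20 and the growth factor receptor Pdgfra at -2.74 ± 0.32. Of 17 smooth muscle and pericyte genes 15 fell and 0 rose (median -1.42). Smooth muscle myosin, Myh11, was at -4.32 ± 0.37, calponin, Cnn1, at -3.54 ± 0.53 and smooth muscle actin, Acta2, at -1.78 ± 0.27. Cnn1 ranged widely in controls, from 7.09 to 10.32, with control 2 lowest. Of 11 mesothelial genes 3 fell, 1 rose and 7 were not called. Rspo1, a Wnt agonist, was at -3.23 ± 0.26 and Aldh1a2, the retinoic acid synthase, rose by 1.86 ± 0.40. The mouse lung also holds cardiac muscle around its large veins. Of 16 cardiac genes 5 fell and 1 rose. The count lower was 3 without control 1 or tumor 4, and the count higher was 2 without control 6, tumor 1 or tumor 4. Among them were Actc1 at -6.06 ± 0.29 and Pln, the regulator of the calcium pump, at -2.28 ± 0.29. Myh7, the slow cardiac myosin, went the other way with 9.48 to 10.53 in controls and 11.70 to 12.25 in tumors (1.97 ± 0.22).

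Matrix genes split by type. None of 15 elastic fibre genes rose and 8 fell (median -1.01). Besides Mfap4, the fibulin Fbln1 was at -2.74 ± 0.34 and the TGF-beta binding protein Ltbp1 at -3.33 ± 0.35, although 1 of its other 2 probe sets was not called. Of 21 collagen genes 6 fell and 5 rose (median 0.29), against 13.2% and 20.3% over all genes. The basement membrane collagens Col18a1 and Col15a1 rose by 2.56 ± 0.44 and 1.99 ± 0.31, with tumors 1 and 4 highest for Col18a1 at 11.91 and 11.80. Col13a1, a transmembrane collagen, was at -2.13 ± 0.18, and the basement membrane chains Col4a3 and Col4a4 at -1.03 ± 0.22 and -0.83 ± 0.18.

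Immune cell lists differed in direction and in how many members were called, against 20.3% higher and 13.2% lower over all genes. Of 13 alveolar macrophage genes 4 rose and 0 fell, with a median of 1.59. Siglecf, a lectin of alveolar macrophages, read 5.43, 8.05, 6.56, 6.38 and 8.20 in controls and 9.35, 9.83, 10.28 and 9.20 in tumors (2.74 ± 0.54, adjusted p = 0.00342). Fabp1, a fatty acid binding protein, rose by 2.71 ± 0.30, Krt79 by 1.64 ± 0.24 and the nuclear receptor Pparg by 1.37 ± 0.27. For several of the genes that were not called, controls 2 and 6 read like the tumors. Chil3, a chitinase-like protein, read 9.98, 12.64, 9.54, 9.09 and 13.64 in controls and 12.64, 13.27, 13.72 and 12.89 in tumors (2.15 ± 0.88, adjusted p = 0.0839), and Fabp4, a fatty acid binding protein of macrophages, read 8.53, 11.15, 8.40, 7.45 and 12.56 and 11.41, 12.02, 12.10 and 11.33. Without control 6, 8 of the 13 genes were called higher, with Chil3 at 2.82 (adjusted p = 0.0133) and Fabp4 at 2.83 (adjusted p = 0.0123). Chil3 was also called without control 2, at 2.57 (adjusted p = 0.0487). The summed macrophage level was 12.9 to 15.2 log2 in controls and 14.3 to 15.2 in tumors. Of 12 interstitial macrophage and monocyte genes 2 rose, or 4 without control 6, and 1 fell, or 2 without tumor 2. With all 9 arrays neither count was above the share over all genes. The lipopolysaccharide co-receptor Cd14 rose by 1.97 ± 0.27 and the apolipoprotein Apoe by 1.20 ± 0.27, while the chemokine receptor Ccr2, which brings monocytes into tissue, was at -1.63 ± 0.37.

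Genes of class II antigen presentation rose in 5 of 7 members and fell in 0 (median 0.93). With 1 array left out, the count higher ran from 3 to 7. It was 3 when any of controls 1, 3 and 4 or tumors 2, 3 and 4 was left out. H2-Ea rose by 1.59 ± 0.29, H2-DMa by 1.63 ± 0.37 and the class II transactivator Ciita by 1.16 ± 0.28. These genes are on in macrophages, B cells and type 2 cells, and controls 2 and 6 were the highest controls for these 3 genes too. B and plasma cell genes fell in 8 of 12 members and rose in 0 (median -1.07). The B cell coactivator Pou2af1 read 8.02, 8.92, 8.63, 6.76 and 7.47 in controls and 4.64, 4.24, 5.15 and 5.83 in tumors (-3.0 ± 0.45, adjusted p = 0.000801), and the receptor component Cd79a was at -2.06 ± 0.35. Over all genes 20.3% were called higher and 13.2% lower. With all 9 arrays the neutrophil and interferon counts below were not above these shares. Of 16 T and NK cell genes 3 fell and 0 rose. The count lower was 1 without control 6, tumor 1 or tumor 4 and 5 without control 4, tumor 2 or tumor 3. Cd3e, of the T cell receptor complex, read 7.98 to 9.26 in controls and 5.74, 8.23, 8.24 and 6.38 in tumors, lowest in tumors 1 and 4, and was not called (adjusted p = 0.0769), but was called at -1.70 without tumor 2 (adjusted p = 0.0367) or tumor 3 (adjusted p = 0.0373). Of 10 neutrophil genes 1 fell, Csf3r at -1.14 ± 0.39 (adjusted p = 0.0466), and 0 rose. That call was lost when any of controls 1, 2, 3, 4 and 6 or tumors 1 and 4 was left out, with changes of -0.84 to -1.23 and adjusted p-values of 0.0601 to 0.123. Of 17 interferon response genes 1 fell (Oas2, -0.93 ± 0.29, not called without control 1, 2 or 6 or tumor 1 or 4) and 0 rose, and the count lower ran from 0 to 4, the highest without tumor 3. Their summed level was 12.6 to 14.0 log2 in controls and 11.4, 13.2, 13.8 and 11.6 in tumors 1 to 4, lower in tumors 1 and 4. Of 9 mast cell and basophil genes 4 fell and 0 rose. Kit, the receptor of stem cell factor, was at -3.36 ± 0.27 and Gata2 at -2.91 ± 0.30, both of which other lung cells express, while the mast cell protease Cpa3 was at -0.71 ± 0.17 from 4.97 to 5.73 in controls.

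Genes of other tissues were mostly not called, as were genes in general, of which 20.3% were called higher and 13.2% lower. Of 9 skeletal muscle genes 2 rose and 1 fell, of 6 adipocyte genes 1 rose and 1 fell, of 9 neuroendocrine genes 0 rose and 1 fell, of 4 red blood cell genes 0 rose and 1 fell, and of 6 nerve and Schwann cell genes 0 were called. Their summed levels were 8.6 to 8.9 log2 in controls and 8.7 to 9.1 in tumors for skeletal muscle, 8.2 to 8.5 and 8.2 to 8.7 for nerve genes, and 8.6 to 10.3 and 7.8 to 8.2 for red blood cell genes. Of 10 genes often used as housekeeping references 4 rose and 1 fell. The skeletal muscle, adipocyte and housekeeping calls changed when single arrays were left out, and the housekeeping fall was lost without any one of the 9.

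Genes of cell division were higher in the tumors. Of 24 mitosis genes, 22 rose and 0 fell, with a median of 1.54. In 12 of the 24 all tumors lay above all controls. With 1 array left out, the count higher ran from 15 to 23. Cdk1, the kinase that starts mitosis, read 6.50, 8.08, 6.74, 5.79 and 7.54 in controls and 10.10, 8.44, 8.41 and 9.09 in tumors (2.08 ± 0.48, adjusted p = 0.00839). Tumors 1 and 4 were the highest, and control 2 was closest to the tumors. Bub1, a kinase of the spindle checkpoint, read 4.97, 4.80, 3.97, 3.72 and 5.12 and 7.46, 6.62, 6.42 and 7.61 and rose by 2.51 ± 0.35. Prc1, which bundles the spindle midzone, rose by 2.42 ± 0.35, the cyclin Ccnb2 by 1.97 ± 0.48, the checkpoint target Cdc20 by 1.55 ± 0.34, the kinesin Kif11 by 1.77 ± 0.42 and the centromere protein Cenpf by 2.08 ± 0.51. The proliferation marker Mki67 rose by 2.06 ± 0.59 (adjusted p = 0.022), but its groups overlapped, with 8.51, 10.69, 8.79, 7.81 and 10.31 in controls and 12.04, 10.97, 10.42 and 11.70 in tumors. Its call was lost without control 1, control 3, tumor 1 or tumor 4, with rises of 1.81 to 1.95 and adjusted p-values of 0.0514 to 0.0606. The median of the 24 genes was 5.99, 7.36, 6.10, 5.80 and 6.91 in the 5 controls and 8.70, 7.64, 7.62 and 8.45 in tumors 1 to 4. Controls 2 and 6, the highest controls here, were also the highest for Chil3 and Fabp4 above, and the part of that in the result was not tested.

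Of 24 DNA replication genes 14 rose and 0 fell (median 0.94). Cdt1, which loads the replicative helicase, rose by 2.57 ± 0.45, from 6.47 to 8.08 in controls to 10.92, 9.08, 9.13 and 9.63 in tumors. Thymidine kinase, Tk1, rose by 1.41 ± 0.27. The replication count was 8 without control 1 or tumor 4 and 7 without tumor 1. Among 16 p53 target genes 6 rose and 0 fell (median 0.50), with Zmat3, an RNA-binding protein, at 1.27 ± 0.14.

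Promoters of 4 mitosis genes are printed here as examples from a list whose members moved together. Genes of the late cell cycle are known to carry a pair of elements near their start, the CCAAT box bound by NF-Y and the CHR element TTTGAA bound by the DREAM and MuvB complexes. Below are the 250 bases before the RefSeq start of 4 of them, from build GRCm38.p6 and written 5′ to 3′ on the strand of the gene, with each TTTGAA and CCAAT, or its reverse complement TTCAAA or ATTGG, in capitals.
Cdk1 (chr10:69352913-69353162, minus strand): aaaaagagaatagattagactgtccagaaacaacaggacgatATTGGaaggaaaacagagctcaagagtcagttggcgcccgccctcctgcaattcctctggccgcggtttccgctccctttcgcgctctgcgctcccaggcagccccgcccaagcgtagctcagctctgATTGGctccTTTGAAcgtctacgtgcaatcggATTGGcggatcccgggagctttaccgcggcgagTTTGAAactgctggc
Ccnb2 (chr9:70421555-70421804, minus strand): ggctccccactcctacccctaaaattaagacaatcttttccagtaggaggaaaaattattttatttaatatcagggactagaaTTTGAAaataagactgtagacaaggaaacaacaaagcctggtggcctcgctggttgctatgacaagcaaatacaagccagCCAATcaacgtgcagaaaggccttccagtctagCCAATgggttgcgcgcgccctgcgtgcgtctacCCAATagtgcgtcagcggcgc
Cdc20 (chr4:118437344-118437593, minus strand): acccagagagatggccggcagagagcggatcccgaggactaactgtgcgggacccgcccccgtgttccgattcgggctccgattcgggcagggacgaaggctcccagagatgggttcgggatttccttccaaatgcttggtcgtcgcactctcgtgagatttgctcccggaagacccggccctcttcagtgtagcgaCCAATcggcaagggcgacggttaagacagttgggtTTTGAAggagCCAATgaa
Kif11 (chr19:37376132-37376381, plus strand): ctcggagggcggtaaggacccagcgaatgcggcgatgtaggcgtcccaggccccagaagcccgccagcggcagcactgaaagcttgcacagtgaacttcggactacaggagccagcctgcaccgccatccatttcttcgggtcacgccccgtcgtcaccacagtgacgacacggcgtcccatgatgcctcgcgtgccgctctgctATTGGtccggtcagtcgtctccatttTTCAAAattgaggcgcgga
In Cdk1 the 2 copies of TTTGAA begin 71 and 15 bases before the start, in Cdc20 the single copy begins 18 bases before it, and in Kif11 the reverse complement begins 19 bases before it, whereas in Ccnb2 it lies 167 bases before it. Of 24 mitosis genes, 19 had such a window, and 9 of them (47.4%) held TTTGAA on either strand, against 14.1% of 14452 tested genes with a window. CCAAT was in 15 (78.9%) against 39.4% of all, and both were in 8 (42.1%) against 5.09%. The 4 genes printed were picked under no stated rule and all hold both motifs, so they do not stand for the list. Of 20 DNA replication genes with a window 2 (10.0%) held TTTGAA and 14 (70.0%) held CCAAT. The motifs can overlap by 1 base, and no copies did so in these 4 windows. Genes called higher as a whole held TTTGAA in 13.5% of 3011 and genes called lower in 14.7% of 1838. A match describes these letters and does not show a bound site.

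Transcripts that ERK induces were higher. Of 22 ERK output genes 16 rose and 1 fell, with a median of 1.24. The phosphatase Dusp4, which inactivates ERK in the nucleus, read 7.87, 8.10, 7.51, 7.44 and 8.14 in controls and 11.15, 10.40, 10.49 and 10.97 in tumors (2.94 ± 0.21, adjusted p = 1.24e-05). The inhibitor Spred1 read 9.12 to 10.03 and 11.91, 11.18, 11.46 and 11.75 (1.88 ± 0.21), and Spred2 rose by 1.32 ± 0.11. The feedback inhibitors Spry1 and Spry2 rose by 1.59 ± 0.20 and 1.49 ± 0.15. All 4 tumors were above all controls for each of these 5 genes, and the tumors differed little among themselves.

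The transcription factors on the list were also higher. Etv4, an ETS factor that ERK induces, rose by 2.16 ± 0.18, Etv5 by 1.68 ± 0.30 and Myc by 1.57 ± 0.27. The ephrin receptors Epha4 and Epha2 rose by 1.56 ± 0.26 and 0.83 ± 0.15, and cyclin D1, Ccnd1, which links growth signals to the cell cycle, by 0.84 ± 0.13. Phlda1, Dusp5 and Spred3 rose by 1.16 ± 0.18, 0.85 ± 0.18 and 0.90 ± 0.24. Ereg, an EGF receptor ligand, read 3.54, 6.36, 3.35, 3.47 and 4.01 in controls and 6.07, 9.14, 8.22 and 5.38 in tumors, higher in tumors 2 and 3, and overlapped control 2 (3.06 ± 0.84, adjusted p = 0.0186). Its call was lost without tumor 3 (2.72, adjusted p = 0.0526). Il1rn, an interleukin 1 antagonist, also overlapped (2.03 ± 0.61, adjusted p = 0.0267), and its call was lost without control 1, 3 or 4 or tumor 2 or 3 (adjusted p = 0.0569 to 0.0711). The exceptions were Fosl1, an AP-1 subunit, which fell slightly (-0.31 ± 0.10, adjusted p = 0.0432, lost without controls 1, 2, 3 or 4 or tumors 1, 3 or 4, at 0.0678 to 0.0953), and 5 genes that were not called. The phosphatase Dusp6 was at 0.43 ± 0.24, Spry4 at -0.15 ± 0.18, Lif at 0.49 ± 0.21, Hbegf at 0.28 ± 0.31 and Ier3 at -0.73 ± 0.38. With probe sets tested singly, another probe set of Spry4 was called higher at 0.43 (adjusted p = 0.0409) and another of Lif at 0.75 (adjusted p = 0.0312).

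The kinases and adaptors of the cascade itself changed less. Of 17 measured RAS to ERK cascade genes 4 rose and 1 fell (median 0.04), near the shares over all genes. The adaptor Shc1 rose by 0.92 ± 0.11 and the kinase Map2k2 by 0.60 ± 0.13, while the scaffold Ksr1 was at -0.68 ± 0.20, a call lost without control 1, tumor 3 or tumor 4 (adjusted p = 0.0554 to 0.0708). Of 21 genes of the JNK and p38 stress kinase branches 5 rose and 2 fell (median 0.14), near the 20.3% and 13.2% over all genes. The p38 substrates Mapkapk2 and Mapkapk3 rose by 0.96 ± 0.17 and 1.04 ± 0.29, and Gadd45b, a stress-induced regulator of these branches, was at -0.82 ± 0.18. Mapkapk3 was not called without tumor 2 (0.85, adjusted p = 0.0548) or tumor 3 (0.90, adjusted p = 0.0584), which left 3 higher. The count lower was 2 without tumor 2 and 1 without any other single array. Of 17 immediate early genes, the first to be transcribed after a stimulus, 3 rose and 3 fell (median -0.14), also near the shares over all genes. Klf4, Klf2 and Jun were at -1.90 ± 0.19, -1.58 ± 0.19 and -1.43 ± 0.19, and Junb rose by 1.02 ± 0.17.

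Receptor tyrosine kinases moved both ways, 8 of 24 higher and 9 lower (median -0.26). Ret, the receptor of glial-derived growth factors, read 6.53 to 7.25 in controls and 9.02, 8.15, 7.93 and 7.98 in tumors, a rise of 1.48 ± 0.24 (adjusted p = 0.00114). Fgfr2, the epithelial receptor of Fgf7, rose by 1.40 ± 0.17, while Fgf7 itself fell, and the hepatocyte growth factor receptor Met rose by 1.36 ± 0.17 and Erbb3 by 1.19 ± 0.19. Receptors that fell, beside Pdgfra and Kit, were Fgfr3 at -1.32 ± 0.18, Fgfr4 at -2.05 ± 0.44 and Ntrk2 at -1.89 ± 0.38. In Fgfr4 tumor 4 read 7.34, within the controls, and the other tumors 5.38, 5.25 and 5.09. Of the other Fgfr4 probe sets 1 was called at -2.89 (adjusted p = 0.0026 with probe sets tested singly), and 3 were not called, at -0.35 to -0.61. The plot of ERK output and receptor genes shows these values by array.

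**Figure D3:**
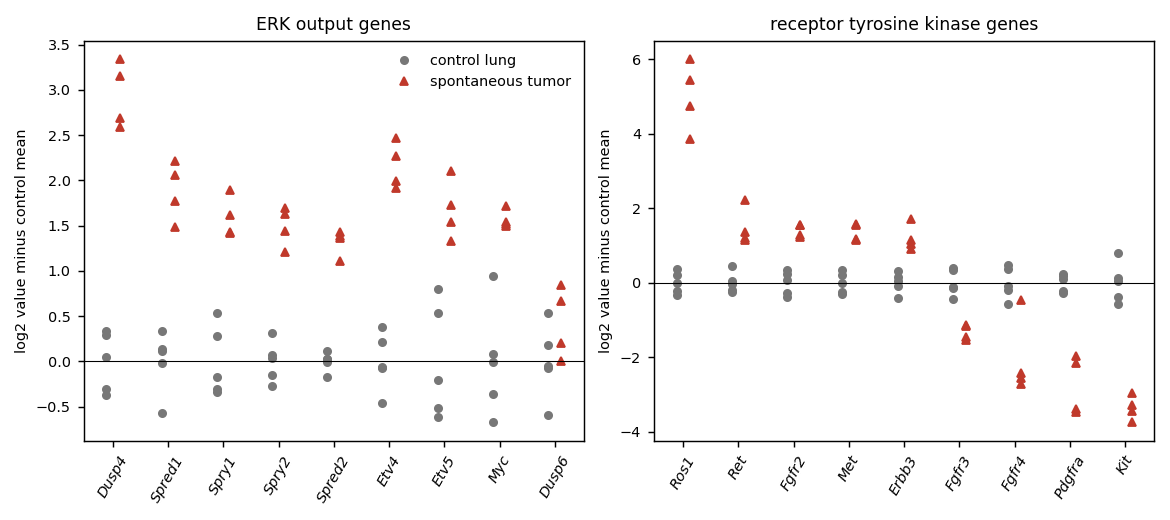
Log2 value minus the mean of the 5 controls (y axis) for 9 ERK output genes and 9 receptor tyrosine kinase genes, with a grey circle for each control array and a red triangle for each spontaneous tumor array. Dusp4 to Myc lie above all controls in every tumor, Dusp6 overlaps them, Ros1 has the largest rise shown, Fgfr4 overlaps through tumor 4, and Fgfr3, Pdgfra and Kit lie below all controls.

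Energy metabolism genes were higher and detoxification genes lower. Of 19 glycolysis and hypoxia genes 11 rose and 1 fell (median 0.71). Hexokinase 2, Hk2, which traps glucose in the cell, read 8.56, 8.16, 8.27, 8.22 and 8.47 in controls and 10.08, 10.38, 10.42 and 10.53 in tumors (2.02 ± 0.13, adjusted p = 7.49e-06). Triose phosphate isomerase, Tpi1, rose by 1.44 ± 0.16, phosphofructokinase, Pfkl, by 1.40 ± 0.20, lactate dehydrogenase A, Ldha, by 1.26 ± 0.17 and the oxygen sensor Egln3 by 2.24 ± 0.41. Vegfa, an angiogenic factor that hypoxia induces and type 1 cells express, went the other way at -1.32 ± 0.20. Of 24 respiratory chain genes 14 rose and 0 fell, by small amounts (median 0.38, largest 0.82 in Uqcrfs1). The median was 0.29 for the housekeeping genes and 0.15 for all genes above the median level. In the sterol and fatty acid list 6 of 20 rose and 2 fell, and the count lower was 4 without control 1. Fatty acid synthase, Fasn, rose by 2.01 ± 0.28 and acetyl-CoA carboxylase, Acaca, by 1.45 ± 0.13, with tumors within 10.36 to 10.54. Sqle, an enzyme of cholesterol synthesis, fell at -1.57 ± 0.25.

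Of 25 xenobiotic metabolism genes 21 fell and 2 rose (median -1.49), with 1 higher without control 2, 3 or 6 or tumor 2 or 4. The flavin monooxygenase Fmo1 read 11.94, 11.37, 12.29, 11.59 and 11.30 in controls and 5.07, 7.0, 6.95 and 6.46 in tumors (-5.33 ± 0.38, adjusted p = 1.28e-05). The cytochromes Cyp4b1 and Cyp2s1 were at -4.84 ± 0.81 and -3.97 ± 0.71, and in both tumor 1 was the lowest and tumor 2 the highest tumor. Many of these enzymes are club cell genes, and Aldh1a1 and Cyp2f2 are on both lists. Of 15 redox genes 4 fell and 3 rose (median 0.02), against 13.2% and 20.3% over all genes. Extracellular superoxide dismutase, Sod3, was at -2.93 ± 0.27 and the quinone reductase Nqo1 at -1.96 ± 0.33, while malic enzyme, Me1, rose by 1.82 ± 0.22 and heme oxygenase, Hmox1, by 1.32 ± 0.15. Of 17 unfolded protein response genes 4 rose and 2 fell, near the shares over all genes. The count higher was 2 without tumor 4, and the count lower was 1 without control 1, 3 or 6 or tumor 1, 3 or 4. Trib3, a stress-induced pseudokinase, rose by 1.10 ± 0.15.

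Wnt pathway genes moved both ways. Of 25, 5 rose, near the 20.3% over all genes, and 9 fell, against 13.2% over all genes. Among secreted antagonists, Wif1 read 7.29 to 8.86 in controls and 2.48, 5.21, 3.31 and 4.18 in tumors (-4.02 ± 0.51, adjusted p = 0.000295) and Sfrp1 was at -2.06 ± 0.45, whereas Frzb and Dkk2 rose by 3.69 ± 0.53 and 4.0 ± 0.37. Among ligands, Wnt7b rose by 1.72 ± 0.22 and Wnt2, of fibroblasts, was at -2.02 ± 0.29. Of 24 genes of gut identity and tumor progression 4 rose and 0 fell (median 0.15). Over all genes 20.3% rose and 13.2% fell (median 0.12). The 4 that rose were Ros1, the glucose transporter Slc2a2 at 3.17 ± 0.44, Dlk1 and the transcription factor Sox4 at 1.20 ± 0.26. Gkn2, a gastrokine of stomach and lung, read 4.09 to 4.52 in controls and 8.67, 5.19, 4.32 and 6.95 in tumors and was not called (adjusted p = 0.0547). Tumors 1 and 4 read highest, and it was called without tumor 2 (2.36, adjusted p = 0.0428) or tumor 3 (2.65, adjusted p = 0.0112).

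Of 21 imprinted genes, which are read from one parental copy, 7 rose and 4 fell (median 0.01). The neighbours Dlk1, Meg3, Rian and Mirg on chromosome 12 had the largest rises of the list but not in the same tumors. Meg3, a noncoding RNA of the maternal copy, read 7.57, 6.75, 7.10, 7.37 and 7.09 in controls and 12.61, 5.94, 11.87 and 12.04 in tumors, and Rian read 6.27 to 7.35 and 12.74, 6.94, 11.88 and 12.64. Dlk1, a membrane protein of the paternal copy, read 4.80, 3.80, 3.50, 4.81 and 4.63 and 4.43, 10.62, 8.07 and 7.83. Tumor 1 was thus high for Meg3 and Rian and at control level for Dlk1, tumor 2 was the reverse, and tumors 3 and 4 were high for all 3. Their changes were 3.44 ± 1.16 (adjusted p = 0.043), 4.19 ± 1.03 (adjusted p = 0.0109) and 3.43 ± 0.97 (adjusted p = 0.0208), each with overlap of the groups. The Meg3 call was kept only without tumor 2 and was lost without any of the other 8 arrays (adjusted p = 0.0695 to 0.112). Ndn, of the Prader-Willi region, fell evenly, with 9.57 to 10.10 in controls and 6.21 to 6.96 in tumors (-3.27 ± 0.20, adjusted p = 5.08e-06). Peg10, a retrotransposon-derived gene, rose by 2.02 ± 0.37, and the cell cycle inhibitor Cdkn1c was at -1.37 ± 0.25.

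The 4 tumors differed from each other in some genes far more than the 5 controls did. The median SD of a gene was 0.21 over controls and 0.24 over tumors, and 395 genes had an SD above 1 over the tumors against 207 over the controls. Over all genes, tumors 2 and 3 were the most alike (r = 0.988), followed by tumors 1 and 4 (r = 0.982), and tumors 1 and 2 the least (r = 0.959). Controls differed too, from 0.972 for controls 2 and 4 to 0.991 for controls 1 and 4, with controls 2 and 6 at 0.989. Controls 2 and 6 were the nearest controls to every tumor, at 0.943 to 0.951 for tumors 2 and 3. These correlations are across genes on arrays of 1 tissue, and genes are not independent.

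The 12 genes with the largest tumor SD among those that were even in controls, chosen for that spread and given as a description, fell into different patterns. Cltrn, a partner of amino acid transporters, read 10.04, 3.78, 4.76 and 11.08 in tumors 1 to 4 and 2.48 to 2.79 in controls. Npy2r, a receptor of neuropeptide Y, read 9.85, 3.17, 5.15 and 7.62 and 2.20 to 2.34, and Lrrn1 read 9.01, 4.23, 2.87 and 8.0 and 3.06 to 3.62. These 3 genes were highest in tumors 1 and 4. The desmosomal cadherin Dsg2 read 9.60, 5.88, 5.46 and 9.45, above the controls (8.26 to 8.96) in tumors 1 and 4 and below them in tumors 2 and 3. Other genes were high in a single tumor. Dcpp3, a secreted parotid-type protein, read 12.67 in tumor 1 and 5.71 to 6.35 in the others, at the level of controls (5.78 to 6.14). Efhd1 and Amph also were above the controls in tumor 1 only, at 10.31 and 9.34, and below them in the other 3. Clca1, a goblet cell protein, read 9.27 in tumor 2 and 3.73 to 3.96 in the others.

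The remaining 4 were club cell or detoxification genes that were lower than controls in every tumor and least so in tumor 2. They were Scgb3a2, Scgb1a1, Cyp4b1 and Cyp2b10, and Cyp2b10 read 5.33, 10.64, 9.35 and 6.82 in tumors against 11.57 to 11.81 in controls. Tumor 1 had the lowest value in each. Of these 12 genes Cltrn, Npy2r, Scgb3a2, Cyp2b10 and Cyp4b1 were called against control. The call of Cltrn was lost without tumor 1 (3.86, adjusted p = 0.0594). Without tumor 1 Amph was called at -3.21, Efhd1 at -1.33 and Scgb1a1 at -1.06, and Lrrn1 was called at 3.39 without tumor 2 and at 3.84 without tumor 3. The summed neutrophil genes, which are not among the 12, were 8.85 in tumor 1 and 10.8 to 11.6 in the others.

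**Figure D4:**
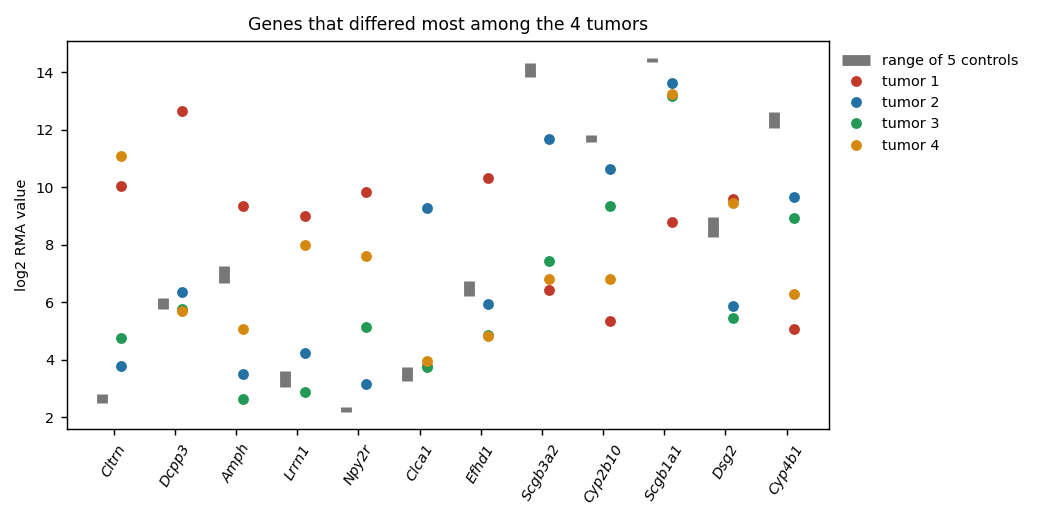
Log2 RMA values (y axis) of the 12 genes with the largest SD among the 4 tumors (coloured points, 1 colour per tumor) out of genes with a control SD under 0.3, with the range of the 5 controls as a grey bar. Tumors 1 and 4 lie together and above the controls for Cltrn, Lrrn1, Npy2r and Dsg2, tumor 1 alone is high for Dcpp3 and Efhd1 and tumor 2 alone for Clca1.

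Genes of some chromosomes were shifted together in single tumors. For each tumor the median difference from the control mean was taken over the genes of a chromosome whose mean was above the median of all genes, less the same over all autosomes. The same measure for each control against the other 4 stayed within -0.06 to 0.05. The 663 genes of chromosome 7 were higher in all 4 tumors, by 0.32, 0.23, 0.21 and 0.28 in tumors 1 to 4, and those of chromosome 19 by 0.39, 0.11, 0.12 and 0.23. Chromosome 4 was lower in all 4, at -0.31, -0.12, -0.12 and -0.29, and chromosome 9 at -0.36, -0.11, -0.12 and -0.24. Chromosomes 6 and 12 were higher in tumors 1 and 4, by 0.37 and 0.32 for chromosome 6 and by 0.31 and 0.27 for chromosome 12, while tumors 2 and 3 lay between -0.09 and 0.03. In tumor 1, chromosomes 8 and 10 were higher by 0.38 and 0.27 and chromosomes 5, 11, 17 and X lower, at -0.22, -0.32, -0.25 and -0.26. The other 3 tumors lay between -0.09 and 0.10 on these 6 chromosomes. All 4 tumors also lay below the controls on chromosome 5, where tumors 2 to 4 were at -0.03 to -0.06, and just below them on chromosome 3, at -0.03 to -0.05. With all genes in place of those above the median, these shifts were smaller and kept their direction. Chromosome 7 was then at 0.14, 0.13, 0.08 and 0.13 in tumors 1 to 4 and chromosome 9 at -0.18, -0.07, -0.07 and -0.13. These shifts are a description with no test, and DNA copy number was not measured.

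**Figure D5:**
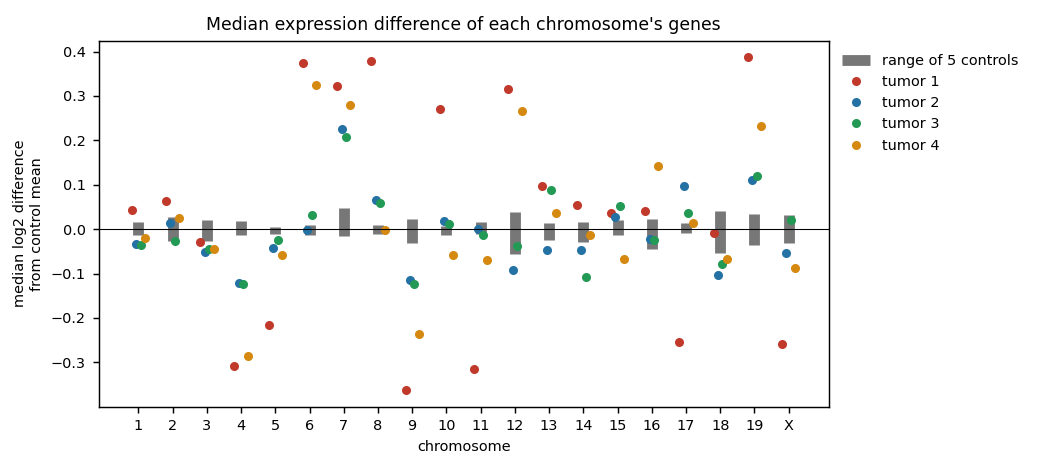
Median log2 difference from the control mean (y axis) of the genes of each chromosome (x axis) in tumors 1 to 4 (coloured points), relative to the same tumor's autosomal median, with the range over the 5 controls as a grey bar. All 4 tumors lie above the controls on chromosomes 7 and 19 and below them on chromosomes 4 and 9 and, by less, 3 and 5, and tumors 1 and 4 lie at 0.27 or more on chromosomes 6 and 12.

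Tumors of exposed mice were used only to test whether a gene differed between the 2 kinds of tumor. Over 15 arrays, with 6 treated tumors, limma called 10 of 18193 genes (0.055%) between treated and spontaneous tumors, 6 higher and 4 lower in treated tumors. One of them was Vps33b, which rose in spontaneous tumors and was at -1.36 ± 0.21 in treated against spontaneous tumors (adjusted p = 0.041). Others among the 10, named after their values were seen, were Cox6a2, a muscle isoform of a respiratory chain subunit, and Tshr, the thyrotropin receptor. In the comparison with control, Cox6a2 read 7.82 to 8.58 in controls and 11.33, 11.35, 11.70 and 10.57 in spontaneous tumors (2.94 ± 0.24), and Tshr read 5.61 to 5.90 and 7.15, 7.40, 6.51 and 7.98 (1.51 ± 0.24). Treated tumors stood at -1.93 ± 0.32 and -1.51 ± 0.20 relative to spontaneous ones (adjusted p = 0.0482 and 0.0167). The count fell to 0 without spontaneous tumor 2 or treated tumor 6, to 1 without spontaneous tumor 3, and was 28 without treated tumor 1, so single arrays decide it. It was 4 without any of the controls, which enter through the shared variance.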

How the data were processed

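Gene expression was measured on Affymetrix mouse arrays with a 3-prime amplification kit. The deposited values are log2 values that the authors made with RMA, per the submitters' processing notes, which give no version. The table held 45101 probe sets, of which 34945 carried 1 symbol, 932 several and 9160 none, and 64 control probe sets were left out. A gene was represented by its probe set with the highest mean, which gave 18193 genes, 9010 of them with several probe sets. By Entrez ID 34741 probe sets were matched, and no symbol changed.

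Tests used limma 3.58.1 in R 4.3.3 (lmFit and eBayes, Benjamini-Hochberg adjustment over all genes, calls at 0.05), on the deposited log2 values of 5 controls and 4 spontaneous tumors, without further normalization. The script was tested on simulated data. Treated tumors entered a second fit over 15 arrays. Exact permutation tests were used for array quality measures. Alternatives were the poor arrays with or without weights, other normalizations, filters, probe set rules and variances, a fold minimum, a Y-linked covariate, the replicate block, an exact test and each array left out.

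The members and lists were chosen with earlier results of these data known. Named genes are, per direction, the 15 called genes with the largest change and the 10 with the smallest p among those without overlap, up to 8 members of each list by smallest p or largest change, all ERK output genes, Xist and Y-linked genes, and the 12 genes with the largest tumor spread among those with a control SD under 0.3. Pecam1, Cdh5, Car4, Kif11, Sftpc, Dnah11, Rfx3, Cox6a2 and Tshr fall outside this rule and were named after their values were seen. Promoter sequences came from RefSeq on GRCm38.p6.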

Additional observations from a re-analysis of the deposited data

Results flagged for a closer look

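Single arrays were checked for values far from the rest of their group, by the gap to the nearest value over the group's range, in 5 controls and in 4 tumors for each named gene. Of 434 such checks 27 passed Dixon's limit, and chance gives about 1 in 20. That rate does not hold for the 12 genes chosen for their spread over the tumors. No explanation was tested for any of them.

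Tumor 2 stood alone in 8 genes. It read 9.27 for Clca1, where the nearest tumor read 3.96, and was low for the imprinted RNAs, at 5.94 for Meg3 (nearest 11.87) and 6.94 for Rian (nearest 11.88). It was the least reduced tumor for Foxj1 (6.26), Hoatz (4.55), Mfap4 (7.23), Rspo1 (5.23) and Col4a4 (10.16). Tumor 1 stood alone in 4 genes, high for Dcpp3 at 12.67 (nearest 6.35) and low for Scgb1a1 at 8.78 (nearest 13.18), Sox2 at 2.77 (nearest 7.20) and Car4 at 10.58 (nearest 11.03). Tumor 4 was apart for Fgfr4 at 7.34 (nearest 5.38), Kdm5d at 10.07, Sqle at 7.41, Tk1 at 7.64 and 4921507P07Rik at 7.25, and tumor 3 for Krt79 at 9.22.

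Among controls, control 2 was high for Ereg at 6.36 (nearest 4.01), Sox9 at 6.17 (nearest 4.57), Fabp1 at 7.66, Csf3r at 8.0 and Itga9 at 9.74. Control 6 was high for Krt79 at 7.57, control 4 for Mirg at 6.08 (nearest 4.84), control 1 low for Cltrn at 2.48 and control 3 low for Npy2r at 2.20.

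Treated and spontaneous tumors differed in 3 genes named above, by a limma test of that difference. Cox6a2 and Tshr were named because that test called them, so their flags are no separate check. Vps33b was named for its change against control. Treated tumors were lower for Vps33b at -1.36, Cox6a2 at -1.93 and Tshr at -1.51.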

How the results depend on the processing

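Against 3692 genes called higher and 2396 lower, adding the 3 poor arrays gave 60 and 255, a limma test against a fold of 2 gave 169 and 495, and the Y-linked covariate gave 1147 and 1102. Leaving out genes below the median level left 1456 lower calls among 9097 genes. Gene by gene, exact permutation called 0 and 0 after adjustment, since its smallest p is 0.0159, with 4727 higher and 2792 lower at an unadjusted p under 0.05. Quantile normalization gave 3351 and 2632, or 44.0% lower against 39.4%. Leaving out 1 array gave 2891 to 3556 higher and 2046 to 2431 lower. Array weights, median centring, other probe set rules, shared variance over 15 arrays and other variance settings stayed within 1.5 times both counts. With the 3 poor arrays, Erbb3 stood at -0.000278, Fosl1 at 0.0456 and Met at -0.27, against the direction given above, and the cause was not tested.

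The labels number the arrays within each group. Same-numbered deviations correlated at 0.10, 0.08, -0.08 and 0.18, and differently numbered ones at -0.17 to 0.21. So few and weak values cannot tell whether the numbers pair the samples. The fit with the replicate block gave 3241 higher and 2208 lower. In treated against spontaneous tumors, 10 genes were called, with 1564 at an unadjusted p under 0.05. All 18 arrays gave 0 (1159 unadjusted), quantile normalization 5, the replicate block 0 (1520 unadjusted), and leaving out 1 array 0 to 28.

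Of 193 named genes with a call, 139 lost it and 3 reversed with all 12 arrays, 96 lost it under the fold minimum, and all 193 under the exact test. In the remaining settings that tested them, 141 kept it throughout. Array number limits precision, and values near the lower quartile carry no detection call.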
